A study of Mus musculus with 6 samples.

Results

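The cytosolic ribosomal protein genes were followed through 6 messenger RNA libraries of the mouse nucleus accumbens core, 3 titled ethanol and 3 titled control. They were taken by symbol, as the Rpl and Rps genes with their lettered and numbered forms, Rplp0, Rplp1, Rplp2 and Rpsa. The rule found 85 of the 24532 genes, which held 109 of the 36780 transcripts of the deposited table. Of these, 52 belong to the large subunit by name and 33 to the small subunit. The rule leaves out Fau and Rack1, which also encode ribosomal proteins, and the mitochondrial ribosome. A low-count filter kept 83 of the 85. Rpl10l had 0 reads in all 6 libraries and Rpl39l had at most 24.

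The cytosolic ribosome joins a small subunit, which decodes the messenger RNA, to a large subunit, which forms the peptide bond, and each carries 1 set of proteins around its ribosomal RNA. Cells make these proteins in matched amounts, and their messenger RNAs begin with a stretch of pyrimidines, the 5′ terminal oligopyrimidine or TOP motif, through which the kinase complex mTORC1 sets how well they are translated. In neurons, translation near synapses is part of lasting plasticity and of memory for fear and its extinction.

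The ethanol libraries and the control libraries came from the same kind of mouse, male, WT by genotype, called adolescent and given as postnatal days 35 to 55. Per the labels, ethanol was given on 1 day after contextual fear conditioning as 6 intraperitoneal injections of a 20% v/v solution spread over 6 h, with 1.8 g/kg in the first and 1.2 g/kg in each later one. Extinction trials and 27 days of every-other-day drinking followed, and the tissue was collected 24 h later. Since the treatment field reads ethanol exposure throughout, the grouping was taken from the titles, and the control injection was not stated. The labels of the control samples carry the same injections and doses as those of the ethanol samples, and the same drinking days. By the series' title the comparison concerns the binge-like exposure, but the labels do not state which steps the control samples went through. The labels name the cell type as mixed and do not say that the samples came from separate animals. The p-values thus rest on sample-to-sample spread alone, and that spread may be technical. In bulk tissue, fewer cells of a type and less RNA per cell cannot be told apart.

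Libraries held 35898026 to 67399599 estimated reads. Drd1, Drd2 and Ppp1r1b, markers of the medium spiny neurons that make up most of this tissue, had reads in every library. Drd1 had 47.2, 58.8 and 45.0 CPM (read counts per 1e+06 reads of the scaled library) in ethanol 1, 2 and 3 and 37.2, 41.8 and 26.9 CPM in control 1, 2 and 3, and Drd2 had 55.1, 35.8 and 35.6 CPM in the ethanol libraries and 23.3, 25.3 and 20.9 CPM in the control libraries. Both were higher in every ethanol library, with log2 fold changes of 0.51 (SE 0.20) and 0.86 (SE 0.21) that did not pass adjustment. Control 2 had reads for 15924 genes, against 17096 to 17707 in the others, and stood apart on the first principal component. Control 3 held 394 CPM of the choroid plexus gene Ttr and the other 5 libraries 0.733 to 4.63 CPM. Slc17a7, a transporter of cortical glutamatergic neurons, had 24.7, 9.42 and 56.0 CPM in the ethanol libraries and 289, 58.2 and 102 CPM in the control libraries, without overlap, a log2 fold change of -2.32 (SE 0.68) that did not pass adjustment. Markers of different cells thus lay in opposite directions between the groups, and their part in the comparisons of ethanol with control was not tested.

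Per length, the ribosomal protein genes spanned a wide range. The tested members had a median of 424 FPKM (fragments scaled by transcript length and library size, averaged over the 6 libraries), 358 FPKM for the large subunit and 435 FPKM for the small subunit. Rplp1, an acidic protein of the stalk that recruits elongation factors, was highest at 1644 FPKM. It had 1169, 2520 and 1147 FPKM in ethanol 1, 2 and 3 and 1480, 1690 and 1856 FPKM in control 1, 2 and 3. Next came Rps29, a small zinc-binding protein, at 1367 FPKM, then Rpl41, the shortest ribosomal protein, at 1255 FPKM, and Rps15 at 1181 FPKM. The 4 ranges over libraries overlapped, from 1147 to 2520 FPKM for Rplp1 and from 799 to 1628 FPKM for Rps15, and all 4 were highest in ethanol 2. Rpl38 followed at 953 FPKM and Rpl13a at 882 FPKM.

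The lowest members were genes named as relatives of other members, some of them known from other tissues. Rpl3l, which takes the place of Rpl3 in muscle, had 33, 22 and 13 reads in the ethanol libraries and 40, 0 and 41 reads in the control libraries. Rpl32l had 5 to 21 reads in each library. Rpl10l and Rpl39l are testis-enriched paralogs of X-linked genes. At 0 reads, Rpl10l lay under the limit of 3 reads, which stands for 0.0445 to 0.0836 CPM and covers counting error only. Of the paralogs present in this tissue, Rpl7l1 averaged 17.9 FPKM, Rps27l 26.2 FPKM, Rps4l 47.7 FPKM and Rpl22l1 138 FPKM. Per length, Rpl22l1 stood above its partner Rpl22, which averaged 45.4 FPKM. Rpl22 is listed at 2203 bases and Rpl22l1 at 477 bases. In CPM, which is not scaled by length, Rpl22 had more reads, with means of 125 against 69.3 in ethanol and 119 against 89.9 in control. A pair of the low values rest on long annotated transcripts. Rps15a (36.3 FPKM) is listed at 5134 bases and Rps20 (67.9 FPKM) at 3446 bases, where the median member had 726 bases, so reads that sit on a shorter form are spread over the listed length.

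For 4 members the table places another gene on the same interval, and the reads were divided between both. Rps27, a zinc-binding protein of the small subunit, shares chromosome 3 from 90212667 to 90213648 (mm10, table coordinates) with Rps27rt. GENCODE M21 on GRCm38 puts Rps27rt elsewhere, as a 1-exon gene on chromosome 9 from 114982366 to 114982739. The 255 coding bases of both, read from the GENCODE transcripts, had 0 mismatches, so reads of the coding part cannot tell them apart. They are shown once, since the same letters stand for both genes.
Rps27 and Rps27rt: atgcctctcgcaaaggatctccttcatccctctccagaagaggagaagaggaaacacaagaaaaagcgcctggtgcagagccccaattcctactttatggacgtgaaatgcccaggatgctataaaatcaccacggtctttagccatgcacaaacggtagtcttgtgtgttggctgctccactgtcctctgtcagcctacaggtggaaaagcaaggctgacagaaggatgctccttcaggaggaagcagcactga

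Rps27 had 271, 355 and 8932 reads in ethanol 1, 2 and 3 and 541, 13499 and 343 reads in control 1, 2 and 3. Rps27rt had 15441, 20312 and 28 reads in the ethanol libraries and 16354, 151 and 14311 reads in the control libraries. Ethanol 3 and control 2 thus gave 99.7% and 98.9% of the joint reads to Rps27, and the other 4 libraries gave it 1.72% to 3.20%. Added together, the pair had 250, 503 and 240 CPM in the ethanol libraries and 293, 355 and 401 CPM in the control libraries. The SD of log2(CPM + 0.5) over the 6 libraries was 2.70 for Rps27 alone and 0.41 for the sum. The same division of libraries was seen in the adult beta-globin genes: Hbb-bs had 0 reads in ethanol 3 and in control 2, where Hbb-b1 had 2874 and 4845 reads, and Hbb-b1 had at most 7 reads in the others.

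Rpl26, which sits near the end of the exit tunnel, shares its interval on chromosome 11 with Gm15772, which GENCODE lists as a processed pseudogene on chromosome 5. Over 438 coding bases the 2 sequences differ at 2 positions, C177T and T288C, counted from the A of the start codon with the Rpl26 base first. Coding bases 162 to 303 of both are printed with these positions in capitals, since within the coding part only reads across them can separate the genes. Bases outside the coding part were not compared.
Rpl26: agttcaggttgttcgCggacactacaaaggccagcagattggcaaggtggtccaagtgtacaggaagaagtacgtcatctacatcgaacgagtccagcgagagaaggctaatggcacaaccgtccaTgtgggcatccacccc
Gm15772: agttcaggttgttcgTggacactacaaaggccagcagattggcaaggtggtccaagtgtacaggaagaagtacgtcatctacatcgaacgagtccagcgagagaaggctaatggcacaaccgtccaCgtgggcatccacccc

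Rpl26 had 1682, 7913 and 817 reads in the ethanol libraries and 6651, 1339 and 1963 reads in the control libraries, which is 5.38% to 26.9% of what it and Gm15772 held together. The ethanol and control values overlapped, and its log2 fold change of 0.24 (SE 0.76) became -0.15 (SE 0.24) for the sum of both. Rpl34 took 14.9% to 28.4% of the reads it shared with Rpl34-ps1, from which its coding bases differ by T132C and C318G. Its log2 fold change of -0.28 (SE 0.29) became 0.09 (SE 0.23) for the sum. Rpl30 took 76.1% to 97.1% beside Gm12191, with the single difference G96A in the coding bases. Values of Rps27, Rpl26 and Rpl34 on their own are therefore uncertain, and adding the copies left the median of all members at a log2 fold change of 0.01.

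**Figure D1:**
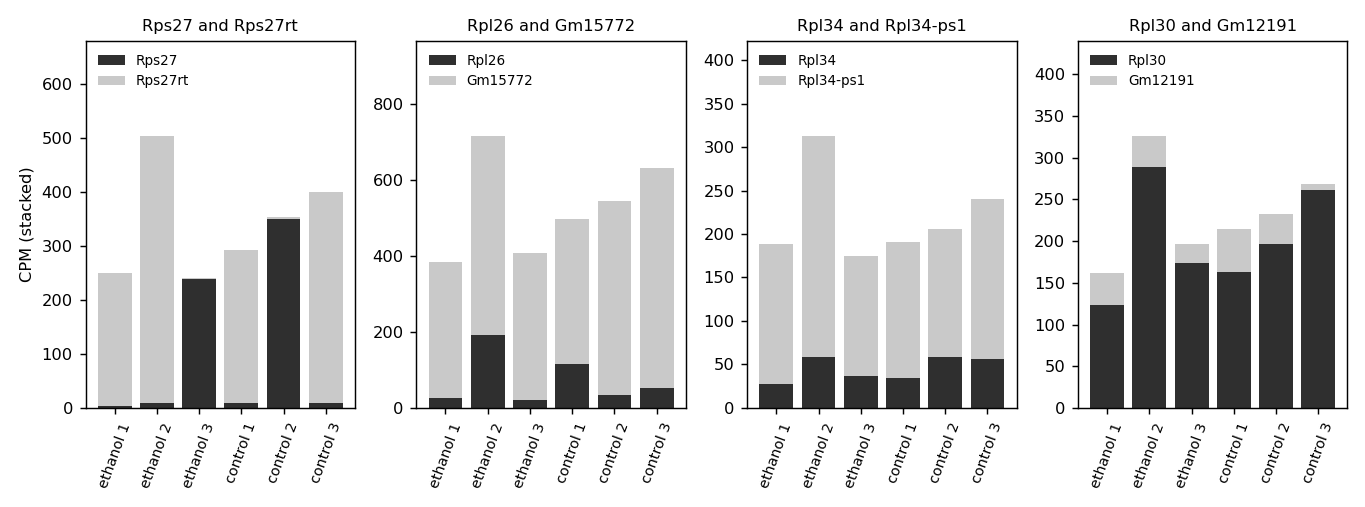
CPM of 4 ribosomal protein genes (dark) and of the gene listed on the same interval (light), stacked for each of the 6 libraries, ethanol left of control. Rps27 holds almost all of its pair in ethanol 3 and control 2 and almost none elsewhere, while the height of the whole bar varies far less.

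Transcripts of 1 gene were divided unevenly in the same 2 libraries for Rps27 and Rpl35a. The 346-base form of Rps27 took 97.7% of the gene's reads in ethanol 3 and 97.4% in control 2, against 1.48% to 2.82% in the other 4. Its 575-base form had 205 to 527 reads in each library. In Rpl35a the 490-base form took 90.0% of the reads in ethanol 3 and 89.9% in control 2, against 61.6% to 69.9% in the other 4. For most members this does not arise, since 70 of the 85 are listed with 1 transcript.

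The summed ribosomal protein level varied more among the ethanol libraries than among the control libraries. The members took 2.35%, 4.39% and 2.60% of all reads in ethanol 1, 2 and 3 and 2.94%, 3.25% and 3.51% in control 1, 2 and 3. The exact 95% binomial intervals, which cover counting error only, reached from 4.38% to 4.40% in ethanol 2 and were about as narrow in the others. On the scaled libraries the sums were 25186, 45955 and 25293 CPM in the ethanol libraries and 28423, 31432 and 34455 CPM in the control libraries. Ethanol 2 was highest of all and ethanol 1 and ethanol 3 were lowest, so the control libraries lay inside the ethanol range. The means were 32145 ± 11960 CPM in ethanol and 31437 ± 3016 CPM in control (SD, n = 3 each), a ratio of 1.02, and without ethanol 2 the ratio was 0.803.

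Large and small subunit genes kept step. The large subunit summed to 14975, 27030 and 14935 CPM in the ethanol libraries and 16855, 18246 and 20355 CPM in the control libraries. The small subunit summed to 10211, 18925 and 10358 CPM in the ethanol libraries and 11569, 13186 and 14100 CPM in the control libraries. The ratio of large to small stayed between 1.43 and 1.47 in ethanol and between 1.38 and 1.46 in control, which overlap.

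The shift was shared by nearly every member. For each gene, the deviation of its log2 CPM from its mean over the 6 libraries was taken. The median deviation over the 83 tested members was -0.33, 0.56 and -0.30 in ethanol 1, 2 and 3 and -0.11, 0.01 and 0.18 in control 1, 2 and 3. In ethanol 2, 82 of 83 members stood above their own mean and 76 had their highest value of all libraries, against 24.1% of all genes tested with their highest value there. Ethanol 1 held the lowest value of 45 members and ethanol 3 that of 34, against 22.7% and 15.1% of all genes tested. The least variable members over the 6 libraries were Rpl7l1, Rpl15, Rps15a, Rpl6 and Rpl4, with an SD of log2 CPM from 0.17 to 0.26. The most variable were Rps27, Rpl3l, Rpl26, Rpl32l and Rps14. Of these, Rps27 and Rpl26 are the divided genes, and Rpl3l and Rpl32l are near 0 reads. Rps14, a platform protein at 392, 872 and 385 CPM in the ethanol libraries and 472, 641 and 676 CPM in the control libraries, had an SD of 0.48.

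**Figure D2:**
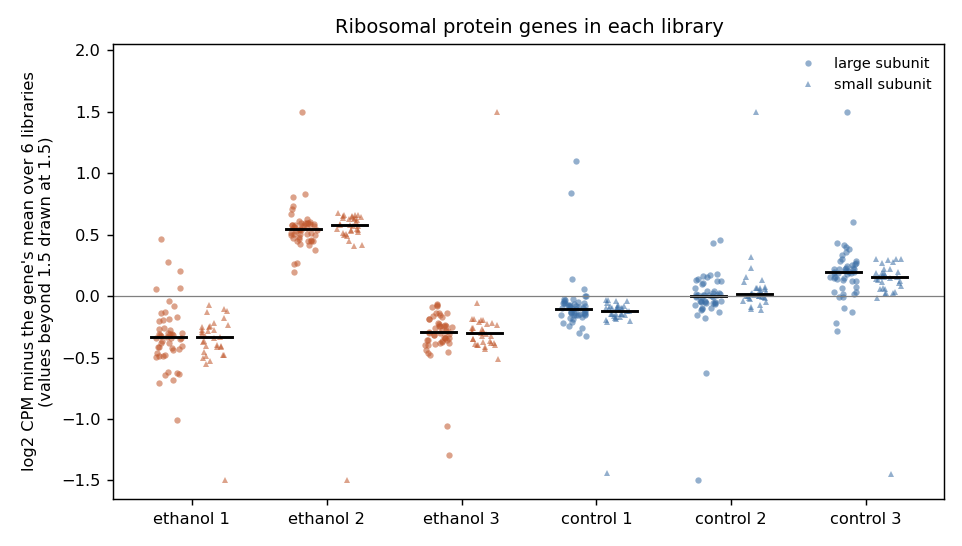
Deviation of log2 CPM from the gene's own mean over 6 libraries for the 83 tested members, by library, with circles for the large and triangles for the small subunit and a bar at each median. Almost the whole set lies high in ethanol 2 (median 0.56) and low in ethanol 1 (-0.33) and ethanol 3 (-0.30), with both subunits at the same height.

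Other short transcripts moved the same way, and ribosomal protein transcripts are short. The tested members had a median length of 725 bases and all genes tested one of 2838 bases. Among the 182 other genes of up to 500 bases, the median deviation was -0.59, 0.41 and -0.28 in ethanol 1, 2 and 3 and 0.05, 0.15 and 0.39 in control 1, 2 and 3. Among the 1694 other genes over 6000 bases it was 0.19, -0.43 and 0.26 in the ethanol libraries and 0.05, 0.01 and -0.03 in the control libraries. The order of the ethanol libraries was thus turned round between short and long genes: ethanol 2 was highest for the short ones and lowest for the long ones. The 17 members of up to 500 bases had median deviations of -0.42, 0.58 and -0.38 in the ethanol libraries and -0.08, 0.06 and 0.22 in the control libraries. The 11 members of 1001 to 1500 bases still had 0.52 in ethanol 2, where other genes of that length had 0.32, and -0.13 and -0.23 in ethanol 1 and 3.

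With a trend of deviation on log2 length removed in each library, the median deviation of the members was 0.05, 0.17 and -0.04 in the ethanol libraries and -0.10, -0.05 and -0.06 in the control libraries. It was smaller in size than before in the 3 ethanol libraries and in control 3, about the same in control 1 and larger in control 2, and ethanol 2 still held the highest value. The length classes and the trend used listed lengths, such as 5134 bases for Rps15a and 3446 bases for Rps20. Where reads sit on a shorter form, the class and the correction of that gene are off. The part of transcript length in the difference between libraries was not tested beyond this description.

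**Figure D3:**
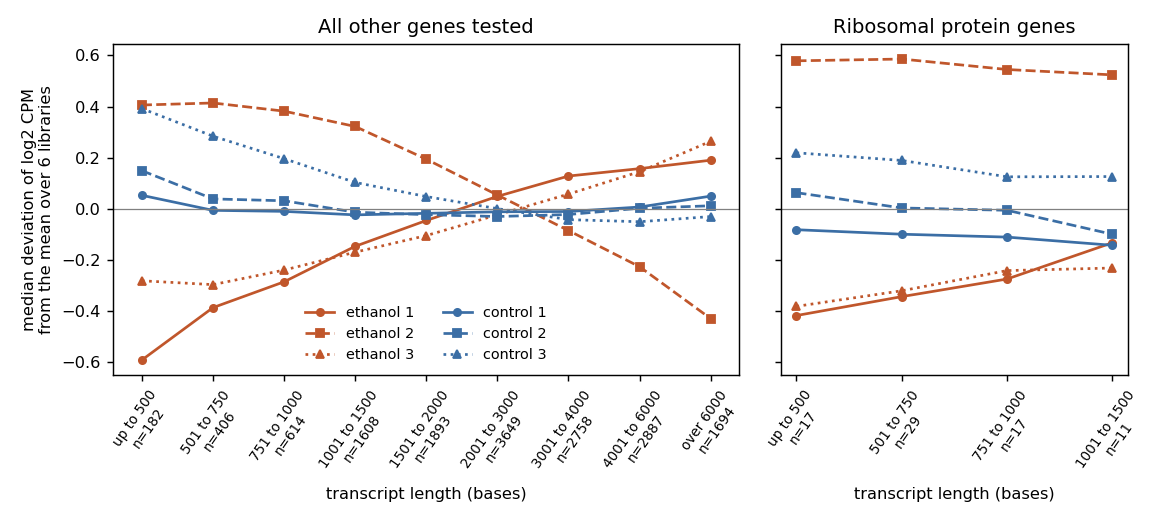
Median deviation of log2 CPM from the mean over 6 libraries by class of transcript length in bases, for all other genes tested (left) and ribosomal protein genes (right, classes with at least 5 members). Lines of the ethanol libraries cross near 2001 to 3000 bases, with ethanol 2 high for short and low for long genes and ethanol 1 and 3 the other way.

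Of 9 lists of cell type markers, 3 also had their highest sum in ethanol 2. The other 6, for astrocytes, oligodendrocytes, endothelial cells, meningeal fibroblasts, choroid plexus and cortical glutamatergic neurons, had it in another library. The 12 medium spiny neuron markers summed to 2828, 4261 and 2266 CPM in the ethanol libraries and 2238, 2476 and 2065 CPM in the control libraries, with 4 of 12 higher and 0 lower at an unadjusted p under 0.05, where 5.31% of all genes tested were higher and 5.34% lower, and none at 0 reads over all libraries. Their median log2 fold change was 0.45, and 0.18 without ethanol 2. The 10 microglia markers summed to 686, 902 and 536 CPM in the ethanol libraries and 520, 666 and 575 CPM in the control libraries, with 1 of 10 higher at that p. Their median was 0.27, and -0.02 without ethanol 2. The 5 blood cell genes summed to 217, 446 and 112 CPM in the ethanol libraries and 172, 119 and 225 CPM in the control libraries, a sum that misses Hbb-b1. Of the 11 tested markers of cortical glutamatergic neurons, 2 lay above 0 and 9 below (median log2 fold change -0.55), with 4 lower at that p. All 10 meningeal fibroblast markers lay below 0 (median -0.53), with 4 lower, and their sum was 72.6, 59.3 and 67.5 CPM in the ethanol libraries and 75.0, 125 and 77.9 CPM in the control libraries. The 10 astrocyte markers summed to 4807, 3946 and 4017 CPM in the ethanol libraries and 3499, 3724 and 3388 CPM in the control libraries, with 2 higher at that p. Of the 10 oligodendrocyte markers, 3 were lower. The part of these cell types in the ribosomal protein level and in the differences between the groups was not tested.

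Set against control, ethanol showed no ribosomal protein gene past the threshold. In edgeR's quasi-likelihood test over 15774 genes, 0 of 83 members had an adjusted p under 0.05, where 0% of all genes tested were called. DESeq2 also called 0 members, with 0.913% of all genes called. At an unadjusted p under 0.05, 1 member was higher and 0 were lower, where 5.31% of all genes were higher and 5.34% lower. The median log2 fold change was 0.01 for the members, -0.03 for the large subunit and 0.01 for the small subunit, beside 0.02 for all genes tested. Of the 83, 42 lay above 0 and 41 below, and 76 were smaller in size than their own standard error, whose median was 0.25.

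Without ethanol 2, in the 5 remaining libraries, the median of the members was -0.38, 80 of 83 lay below 0, and 1 was higher and 50 were lower at an unadjusted p under 0.05, where 12.7% and 10.2% of all genes tested were. In that fit edgeR called 0 members and 1.33% of all genes. With the length trend removed over all 6 libraries, the median was 0.13, 65 of 83 lay above 0, and 13 were higher and 1 lower at an unadjusted p under 0.05, where 9.06% and 7.94% of all genes were. Again 0 passed after adjustment, with a smallest adjusted p of 0.182. Without ethanol 1 the median was 0.16 and 74 of 83 lay above 0, and without control 3 it was 0.08 with 65 above 0. In limma-voom with sample weights it was -0.20 with 9 above 0. The direction of the set as a whole therefore depended on which library was left out, on the method and on the treatment of length.

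**Figure D4:**
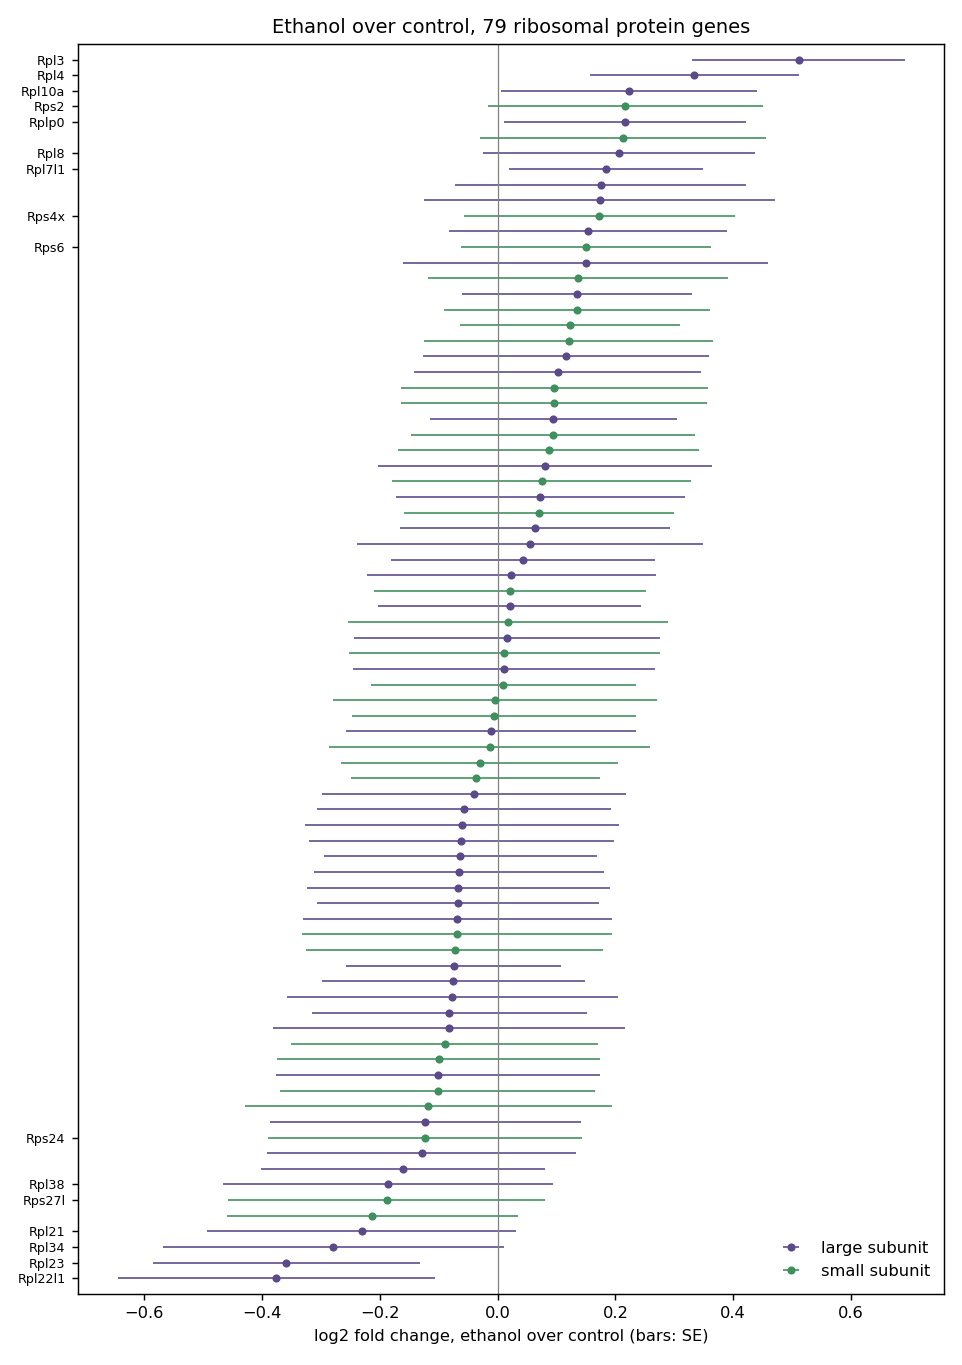
Log2 fold change of ethanol over control with its standard error for 79 tested members in order of size, with names for those given fold changes in the text, large subunit in purple and small subunit in green. Rps27, Rpl26, Rpl3l and Rpl32l, whose standard errors run from 0.67 to 1.56, are left out. Most bars cross 0, with Rpl3 at 0.51 and Rpl22l1 at -0.38 at the ends.

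Among the large subunit genes, Rpl3 stood furthest from the rest. Rpl3, whose protein reaches to the peptidyl transferase centre, lies on chromosome 15 from 80077781 to 80083406 and had 997, 1202 and 779 CPM in ethanol 1, 2 and 3, against 670, 741 and 679 CPM in control 1, 2 and 3. The lowest ethanol value exceeded the highest control value, which was so for 1 of the 83 members and for 9.35% of all genes tested. The opposite order held for 0 members and 8.41% of all genes. Its log2 fold change was 0.51 (SE 0.18, unadjusted p = 0.0187, adjusted p = 0.439 in edgeR), so it did not pass. It was 0.53 with the length trend removed and between 0.34 and 0.66 with each library left out in turn, and ethanol 1, low for most members, held its second highest value.

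Rpl4, which with Rpl17 narrows the exit tunnel, had 631, 836 and 575 CPM in the ethanol libraries and 517, 585 and 518 CPM in the control libraries, with the lowest ethanol value just under the highest control value. Its log2 fold change was 0.33 (SE 0.18), and 0.15 without ethanol 2. Rpl10a, the protein of the mobile stalk beside the exit site, had 202, 309 and 174 CPM in the ethanol libraries and 184, 208 and 195 CPM in the control libraries, which overlap, and a log2 fold change of 0.22 (SE 0.22). Rplp0, the base of the acidic stalk, had a log2 fold change of 0.22 (SE 0.21), Rpl8, near the peptidyl transferase centre, 0.21 (SE 0.23), and Rpl7l1 0.18 (SE 0.16). Without ethanol 2 the values of Rpl10a, Rplp0 and Rpl8 were -0.07, -0.02 and -0.12.

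At the other end, Rpl23, a protein of the face that meets the small subunit, had 237, 438 and 311 CPM in the ethanol libraries and 381, 402 and 481 CPM in the control libraries. Only ethanol 2 reached the control range, and the log2 fold change was -0.36 (SE 0.23, unadjusted p = 0.146, adjusted p = 0.575 in edgeR). It was -0.63 without ethanol 2 and -0.17 without ethanol 1. Rpl22l1 had 46.9, 99.2 and 61.6 CPM in the ethanol libraries and 73.7, 105 and 90.8 CPM in the control libraries, a log2 fold change of -0.38 (SE 0.27) with overlap through ethanol 2. It was -0.74 without ethanol 2 and -0.16 without ethanol 1. Rpl22, the partner it resembles, had 105, 170 and 98.8 CPM in the ethanol libraries and 104, 135 and 119 CPM in the control libraries. Rpl21 had a log2 fold change of -0.23 (SE 0.26), and Rpl38, needed in mouse embryos for translation of Hox messenger RNAs, had -0.19 (SE 0.28), which was 0.11 with the length trend removed. Without ethanol 2 they were -0.57 and -0.63.

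**Figure D5:**
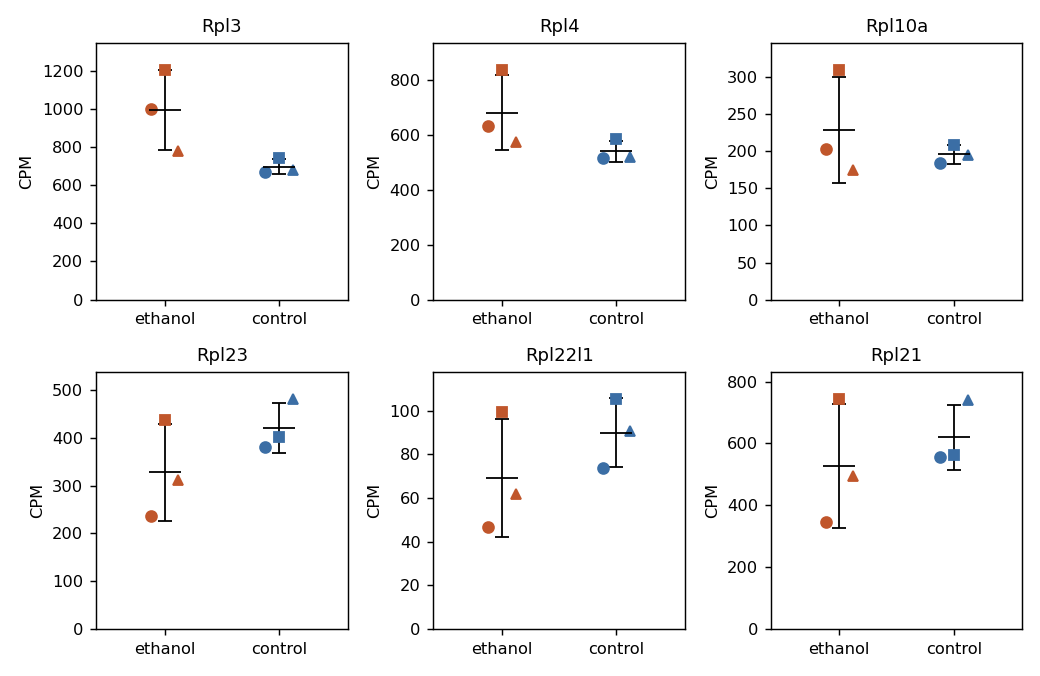
CPM of 6 members at the upper (Rpl3, Rpl4, Rpl10a) and lower (Rpl23, Rpl22l1, Rpl21) end of the order, ethanol left of control, with circle, square and triangle for replicates 1, 2 and 3 and mean ± SD in black. The groups do not overlap for Rpl3, and ethanol 2 (square) is the highest ethanol library in all 6 panels.

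The members of the 5S particle, Rpl5 and Rpl11, bind Mdm2 when ribosome assembly is disturbed. Rpl5 had 260, 519 and 322 CPM in the ethanol libraries and 335, 394 and 423 CPM in the control libraries. Rpl11 had 346, 673 and 352 CPM in the ethanol libraries and 423, 522 and 555 CPM in the control libraries, and in both genes the groups overlapped. Rpl13a, which carries 4 small nucleolar RNA genes within its span, more than any other member, had 839, 1590 and 788 CPM in the ethanol libraries and 965, 1157 and 1250 CPM in the control libraries. Rpl7 averaged 358 ± 119.7 CPM in ethanol and 374 ± 39 CPM in control (SD, n = 3 each). Rpl10, which joins late in assembly of the large subunit, averaged 411 ± 121 CPM in ethanol and 385 ± 24.2 CPM in control. Rpl39, a short protein of the exit tunnel, averaged 149 ± 60.1 CPM in ethanol and 162 ± 25.4 CPM in control, and Rpl28 336 ± 119.5 CPM in ethanol and 376 ± 53.6 CPM in control. The groups overlapped for these 4 genes, with differences of means smaller than the ethanol SD. In all, 23 members held 33 small nucleolar RNA genes within their spans by the coordinates of the deposited table, with strand not compared.

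In the small subunit every log2 fold change was within 1 standard error of 0. Rps2, at the entry of the messenger RNA channel, had 414, 730 and 405 CPM in the ethanol libraries and 410, 445 and 478 CPM in the control libraries, a log2 fold change of 0.22 (SE 0.23). Rps6, the protein that S6 kinases phosphorylate downstream of mTORC1, had 422, 662 and 394 CPM in the ethanol libraries and 415, 428 and 489 CPM in the control libraries, a log2 fold change of 0.15 (SE 0.21). The X-linked Rps4x stood at 0.17 (SE 0.23). For these 3 genes the groups overlapped, and without ethanol 2 the values lay between -0.16 and -0.13.

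Rps27l, a p53-inducible paralog of Rps27, had a log2 fold change of -0.19 (SE 0.27) and Rps24 one of -0.12 (SE 0.27), which were -0.58 and -0.53 without ethanol 2. Of 20 genes mutated in Diamond-Blackfan anaemia, an inherited failure of red cell production, 5 lay above 0 and 15 below with a median of -0.06, or -0.44 without ethanol 2, and 0 passed. In the edgeR fit of all 6 libraries, 0 were higher and 0 lower at an unadjusted p under 0.05. Their median length was 612 bases, and with the length trend removed their median log2 fold change was 0.07. Rpsa, the ribosomal and laminin-binding protein, had 885, 1441 and 729 CPM in the ethanol libraries and 860, 935 and 1067 CPM in the control libraries. Rps3, at the channel entry, had 541, 999 and 507 CPM in the ethanol libraries and 567, 650 and 711 CPM in the control libraries. Both overlapped between the groups. Rps3a1, a body protein, averaged 475 ± 159.9 CPM in ethanol and 433 ± 36.2 CPM in control (SD, n = 3 each), and Rps15a 236 ± 54 CPM in ethanol and 217 ± 13.4 CPM in control. Rps19, the gene most often mutated in that anaemia, averaged 375 ± 157 CPM in ethanol and 351 ± 36.2 CPM in control. Rps25, which many viral internal entry sites require, averaged 357 ± 128 CPM in ethanol and 364 ± 32 CPM in control. Rps27a, made as a ubiquitin fusion, averaged 467 ± 181 CPM in ethanol and 429.9 ± 30.9 CPM in control. Rps4l averaged 55.9 ± 18.2 CPM in ethanol and 53.2 ± 4.04 CPM in control, Rps15 723 ± 308 CPM in ethanol and 776 ± 107 CPM in control and Rps16 305 ± 134 CPM in ethanol and 327 ± 39.6 CPM in control. For these 8 genes the groups overlapped, the SD of the ethanol libraries being the larger throughout.

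The share of each gene in the summed ribosomal protein CPM removes the level that the members have in common. Rpl3 made up 3.96%, 2.62% and 3.08% of the sum in ethanol 1, 2 and 3 and 2.36%, 2.36% and 1.97% in control 1, 2 and 3, a ratio of mean shares of 1.45. The next ratios among genes whose shares were all higher in ethanol were 1.15 for Rpl10a, 1.14 for Rps2 and 1.14 for Rpl8. Rpl22l1 made up 0.186%, 0.216% and 0.244% in the ethanol libraries and 0.259%, 0.335% and 0.264% in the control libraries, a ratio of 0.75. Rpl23 had a ratio of 0.78 and Rpl38 one of 0.85. Shares did not overlap for 25 of the 83 members, 9 with the ethanol libraries above and 16 below. Taken over the same sum, 1.36% of all genes tested had the ethanol libraries above and 4.53% below, but for genes outside the set this ratio keeps the common shift that it takes out of the members. The 9 genes with higher shares had a median length of 862 bases and the 16 with lower shares one of 523 bases. Over 79 members, leaving out the 4 with a divided interval, the log2 fold change and length had a Spearman rho of 0.31. Over the 15691 other genes rho was 0.08, but these span a wider range of lengths, so the values cannot be compared directly. Between the classes up to 500 and 1001 to 1500 bases, the median log2 fold change of other genes rose from -0.33 to -0.0071. That of all members in these classes rose from -0.07 to 0.135. All these values come from the same libraries and are given as a description.

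Members were also grouped by place in the ribosome, and differences between places were not tested. The 4 genes of the stalk and GTPase centre, Rplp0, Rplp1, Rplp2 and Rpl12, all lay above 0 (median log2 fold change 0.11), and the 2 of the 5S particle lay below, with a median of -0.10. The 10 exit tunnel genes split 5 and 5. Of the small subunit, 6 of 15 head genes and 11 of 16 body and platform genes lay above 0. None of these genes was higher or lower at an unadjusted p under 0.05. With ethanol 2 left out, the median was -0.35 for the stalk, -0.47 for the 5S particle, -0.41 for the exit tunnel, -0.41 for the head and -0.31 for the body and platform. The 5 tested paralogs of the list had a median of -0.19.

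The sequence at the starts of the members was also read, for the TOP motif. RefSeq promoter windows on GRCm38.p6 were matched for 64 of the 85 genes. Within 50 bases on each side of the start, 36 of the 64 genes, or 56.2%, held at least 1 of 3 pyrimidine motifs on the coding strand, against 11.9% of all 27025 genes in the same table. On the opposite strand the values were 6.25% and 11.3%. A match in this range need not lie at the first base, where a TOP motif begins. The match nearest the start began at base 42 in Rpl10, at base 22 in Rpl10a and at position -32 in Rpl22. The share is thus not a share of TOP starts. A motif searched was CTTTCC. The next was CCTTTC, which overlaps it. The last of these was CTCTTT, whose end overlaps the start of CTTTCC. They were chosen after windows of the members had been read, as letters typical of TOP starts, so the shares describe these windows and test nothing, and the rest of the 64 genes held no match. The 30-base windows below, with matches in capitals, come from genes described above or with a match at the annotated start, and were picked because they hold a match, to show what one looks like.
Rps27: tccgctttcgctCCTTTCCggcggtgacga
Rps6: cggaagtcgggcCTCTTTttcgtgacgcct
Rpl38: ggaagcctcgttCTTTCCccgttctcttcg
Rpl28: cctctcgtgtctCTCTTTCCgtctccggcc
Rplp2: cgtcagcgtcttCCTTTCgccgccggacgc
Rpl4: caagtgacaagtCTTTCCttttcctgtggg

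They lie at chr3:90213631-90213660 (minus strand) for Rps27, chr4:86857350-86857379 (minus strand) for Rps6, chr11:114668568-114668597 for Rpl38, chr7:4792953-4792982 for Rpl28, chr7:141447638-141447667 for Rplp2 and chr9:64173358-64173387 for Rpl4. In Rps27, Rps6, Rpl38 and Rpl28 the match begins at base 1 of the RefSeq transcript. The deposited table starts Rpl38 further downstream, at 114668781, so that window does not lie at the start of the Rpl38 transcript measured here. In Rpl4 the match begins at position -17.

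The genes of translation outside the set gave 0 calls in edgeR as well. Of the 11 measured genes of ribosome-associated proteins, 6 lay above 0 and 5 below, with a median log2 fold change of 0.03, or -0.22 without ethanol 2. Eif6, which keeps new large subunits apart from small ones, averaged 71.1 ± 19.7 CPM in ethanol and 55.5 ± 2.07 CPM in control (SD, n = 3 each). Rpl36al averaged 75 ± 24.2 CPM in ethanol and 91.5 ± 14.8 CPM in control, and Serbp1 169 ± 22.3 CPM in ethanol and 149 ± 11.4 CPM in control. Fau, which encodes a ubiquitin-like protein fused to a small subunit protein, had 320, 664 and 320 CPM in the ethanol libraries and 387, 389 and 470 CPM in the control libraries. Fau had the pattern of the members, high in ethanol 2 and low in ethanol 1 and 3. Rack1 had it only in part, with 301, 411 and 251 CPM in the ethanol libraries and 264, 292 and 293 CPM in the control libraries. It was highest in ethanol 2 and lowest in ethanol 3, but ethanol 1 lay above the control libraries. Rpl36al was highest in control 3, at 108.5 CPM, beside 102 CPM in ethanol 2.

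Most elongation and initiation genes lay above 0 in the fit of all 6 libraries, and the medians of both lists fell just below 0 without ethanol 2. Of 14 elongation and termination genes, 11 lay above 0 with a median of 0.14, and 3 were higher and 1 lower at an unadjusted p under 0.05, where 5.31% of all genes tested were higher and 5.34% lower. Without ethanol 2 the median was -0.0021, with 3 higher and 0 lower at that p, where 12.7% and 10.2% of all genes tested were. Eef1a1, which carries aminoacyl-tRNA to the ribosome and whose messenger RNA has a TOP start, had 2957, 3554 and 2614 CPM in the ethanol libraries and 2225, 2413 and 2218 CPM in the control libraries. The groups did not overlap, and its log2 fold change was 0.41 (SE 0.16, unadjusted p = 0.0248, adjusted p = 0.448 in edgeR). Without ethanol 2 it was 0.27. The neuronal form Eef1a2 averaged 1106 ± 181 CPM in ethanol and 845 ± 69.4 CPM in control (SD, n = 3 each), and the release factor gene Gspt2 31.3 ± 4.57 CPM in ethanol and 22.6 ± 2.83 CPM in control, and neither passed. The log2 fold changes of Eef1a2 and Gspt2 were 0.39 and 0.47, and 0.41 and 0.56 without ethanol 2. Of 39 initiation genes, 25 lay above 0 with a median of 0.10, and 4 were higher and 0 lower at that p. Without ethanol 2 the median was -0.06, with 5 higher and 4 lower, where 12.7% and 10.2% of all genes tested were. Eif4h, a partner of the helicase Eif4a, had 533, 583 and 412 CPM in the ethanol libraries and 360, 375 and 361 CPM in the control libraries, a log2 fold change of 0.48 (SE 0.17), which was 0.36 without ethanol 2. Eif3c averaged 238 ± 22.2 CPM in ethanol and 177 ± 6.62 CPM in control, and Eif4b, whose protein stimulates Eif4a, 256 ± 44 CPM in ethanol and 186 ± 12.9 CPM in control.

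Of 22 regulators of mTORC1 and of TOP messenger RNAs, 9 lay above 0 and 13 below with a median of -0.12, and 2 were higher and 4 lower at an unadjusted p under 0.05, where 5.31% of all genes tested were higher and 5.34% lower. Without ethanol 2 the median was -0.19, with 7 higher and 6 lower, where 12.7% and 10.2% of all genes were. Tia1, which binds TOP messenger RNAs when amino acids are scarce, had 20.3, 29.2 and 54.4 CPM in the ethanol libraries and 83.1, 60.3 and 85.1 CPM in the control libraries, without overlap. Its log2 fold change was -1.14 (SE 0.33, unadjusted p = 0.00624, adjusted p = 0.419 in edgeR), and DESeq2 called it. Rps6kb2, a kinase of Rps6, had 15.7, 16.3 and 23.7 CPM in the ethanol libraries and 48.1, 31.7 and 44.8 CPM in the control libraries, again without overlap. Its log2 fold change was -1.16 (SE 0.23, unadjusted p = 0.000517, adjusted p = 0.419 in edgeR), and DESeq2 called it too. Tial1, a relative of Tia1, averaged 47.9 ± 15.1 CPM in ethanol and 79.1 ± 8.74 CPM in control (SD, n = 3 each). Of 60 ribosome biogenesis genes, 33 lay above 0 with a median of 0.06, and 4 were higher and 1 lower at that p, of the same background. Without ethanol 2 the median was -0.08, with 6 higher and 9 lower. Bop1, which acts in maturation of the large subunit, had 71.3, 64.5 and 52.1 CPM in the ethanol libraries and 43.4, 40.2 and 44.2 CPM in the control libraries, a log2 fold change of 0.56 (SE 0.17). Grwd1 averaged 26.5 ± 2.85 CPM in ethanol and 19 ± 2.07 CPM in control, and Rrp12 43.6 ± 9.25 CPM in ethanol and 29.9 ± 3.11 CPM in control. Of 14 p53 pathway genes, 6 lay above 0 with a median of -0.03, and 2 were higher and 2 lower at that p, again beside 5.31% and 5.34% of all genes. The median was -0.12 without ethanol 2. Mdm2 had 35.6, 37.2 and 43.5 CPM in the ethanol libraries and 46.2, 55.6 and 51.4 CPM in the control libraries, a log2 fold change of -0.40 (SE 0.16). Mdm4, its partner in holding p53 down, averaged 49.7 ± 15.4 CPM in ethanol and 78 ± 8.03 CPM in control, and the p53 target Zmat3 90.2 ± 17.4 CPM in ethanol and 64.2 ± 3.25 CPM in control. All genes named here from these lists had an adjusted p above 0.4 in edgeR.

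Other sets of short nuclear genes followed the same libraries. The 74 genes of oxidative phosphorylation, with a median length of 703 bases, had median deviations of -0.36, 0.44 and -0.36 in the ethanol libraries and -0.03, 0.01 and 0.28 in the control libraries. Their median log2 fold change was -0.14, with 2 higher and 1 lower at an unadjusted p under 0.05, beside 5.31% and 5.34% of all genes tested. It was 0.02 with the length trend removed. Without ethanol 2 it was -0.48, with 51 of the 74 lower, where 10.2% of all genes were. Cox7b, a small subunit of cytochrome oxidase, averaged 182 ± 80.9 CPM in ethanol and 311 ± 65 CPM in control, a log2 fold change of -0.77 (SE 0.32), which was -0.46 without ethanol 1. The longer Sdha averaged 561 ± 42.4 CPM in ethanol and 401 ± 30.1 CPM in control, and Atp5a1 1203 ± 186 CPM in ethanol and 909 ± 36 CPM in control. The 78 mitochondrial ribosomal protein genes, with a median length of 1052 bases, had -0.24, 0.37 and -0.25 in the ethanol libraries and -0.02, 0.02 and 0.15 in the control libraries. Their median log2 fold change was -0.05, with 0 genes at that p in either direction. Without ethanol 2 it was -0.28, with 31 of the 78 lower. The 3 with the smallest p were Mrpl47, Mrps36 and Mrpl42, all lower on average in ethanol. In ethanol 2 the cytosolic set had 0.56, beside 0.44 and 0.37 for these sets, a difference that was not tested.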

How the data were processed

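The authors deposited 1 table for the series with a row per RefSeq transcript, holding an estimated count and an FPKM value per sample. Per the submitters' processing notes the build was mm10 and bcl2fastq was used. The aligner, the counter and any use of strand were not given in the sources used here. Each deposited estimated count equalled FPKM times length times library size after rounding up (100% of transcripts checked). Counts were summed by gene identifier, and deposited FPKM likewise. Estimated counts can divide reads wrongly among isoforms, paralogs and overlapping genes.

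Genes passing filterByExpr (minimum count 10) were scaled by TMM and tested with edgeR 4.0.16 (quasi-likelihood, R 4.3.3, two-sided, group as the only term), with Benjamini-Hochberg adjustment over 15774 genes. The procedure was tested on simulated data. DESeq2 1.42.0, limma 3.58.1 (voom), other scalings and filters, a block, removal of a loess length trend (span 0.3) and leaving out each library were alternatives. Adding copies at one locus was chosen after seeing the data. Length is that of the most abundant transcript. The members, lists and tests were chosen with earlier results of these data known. Named were the 6 members per subunit and direction with the smallest p, fixed members of known role, the 5 highest and lowest by FPKM and the 5 most and least variable, and the 3 genes with the smallest p of each other pathway list. Some genes under that rule are not reported here. Departing from it, cell marker lists are described by sums and no genes of theirs were named by p. Replicate numbers were not treated as pairs. Figures used matplotlib 3.10.9.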

Additional observations from a re-analysis of the deposited data

How the results depend on the processing

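No setting called a ribosomal protein gene: edgeR with other scalings or filters, the most abundant transcript alone, the length trend removed, DESeq2, limma-voom (plain or sample-weighted), and each library left out. Over all genes, DESeq2 called 51 higher and 93 lower, and edgeR called 0 to 201 higher and 0 to 10 lower with each library left out, the most without ethanol 2 and 1 higher without control 1. The cause was not tested. The median log2 fold change of the members ran from -0.377 without ethanol 2 to 0.162 without ethanol 1, that of the large subunit from -0.387 to 0.149 and that of the small subunit from -0.316 to 0.167. The ratio of summed levels ran from 0.803 to 1.13. Total-count scaling gave a median of -0.08, voom -0.06 and sample weights -0.20.

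Deviations of same-numbered libraries had correlations of 0.146, -0.031 and -0.017, and those of differently numbered ones ran from -0.217 to 0.188. With 3 libraries a group, these values cannot decide whether the labels' numbers mark pairs. With the replicate block the median was -0.06 with 0 calls, and Rpl26 turned to -0.49. Rpl26 was also -0.15 with copies added, -0.33 with voom and -0.996 with sample weights. Rpl34 was 0.087 with copies added and Rpl38 0.11 with the length trend removed. With sample weights Rpl8, Rps6 and Rps27 were -0.0086, -0.017 and 0.96. Leaving out 1 library gave ranges of -0.024 to 0.39 for Rplp0, -0.067 to 0.39 for Rpl10a, -0.12 to 0.38 for Rpl8, -0.57 to 5.5e-05 for Rpl21, -0.13 to 0.37 for Rps2, -0.16 to 0.32 for Rps4x, -0.13 to 0.29 for Rps6, -0.53 to 0.086 for Rps24, -4.25 to 3.16 for Rps27 and -1.49 to 0.86 for Rpl26. In all, 21 of 714 refits of 42 genes, those given fold changes and those of the other lists, had the opposite sign, and 2 changed their side of the threshold, Tia1 and Rps6kb2 in DESeq2. With 3 samples a group and a median standard error of 0.25, small changes of single members were not detectable.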
